A study of Mus musculus with 16 samples.

Results

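Transcripts of 10 transcription factors of the AP-1 and immediate early class (Fos, Fosb, Fosl2, Jun, Junb, Jund, Atf3, Egr1, Egr2 and Myc) were followed in mouse retina 24 h after light. They were taken as the probe sets annotated to 1 of these symbols, which gave 14 of the 45037 probe sets of the array. Of these, 9 exceeded a log2 intensity of 4 (an intensity of 16) on at least 2 arrays and were tested, covering 8 of the 10 genes among 10916 genes tested. Fosb, Egr2, the second Fosl2 probe set and the second Jund probe set did not pass that level and are described without a test.

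The retinas came from BALB/c mice of both sexes, 11 to 16 weeks old, that either lacked Nxnl1, the gene of the rod-derived cone viability factor (Nxnl1-/-, here KO), or carried 2 wild-type alleles (Nxnl1+/+, here WT). All animals were kept in darkness for 16 h, exposed for 1 h to white fluorescent lamps at 50, 2500 or 5000 lux, and put back in the dark for 24 h, so the groups at 50 lux went through the same sequence in the dim light of their rearing. In order of rising dose, KO retinas gave 3, 3 and 2 arrays and WT retinas gave 2, 3 and 3. Each array held RNA of retina that the labels describe as freed of the pigment epithelium, and they do not say whether 1 animal or a pool supplied it. Epithelial transcripts were nonetheless measured on all 16 arrays, Rpe65 at log2 6.06 to 8.25 on the bright arrays and 8.54 to 10.12 on the 50 lux arrays. The p-values therefore measure the spread between these arrays.

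AP-1 is a dimer of basic leucine zipper proteins. Jun, Junb and Jund pair with each other or with a Fos protein, while Atf3, a stress-induced member of the wider family, pairs with Jun proteins or with itself. Egr1 and Egr2 are zinc finger factors, and Myc is a helix-loop-helix zipper factor that drives growth and ribosome genes. Their genes are called immediate early because stimulation switches them on within minutes without new protein synthesis, and most return to their starting level within hours. In the retina light exposure and photoreceptor injury are known inducers of Fos and of AP-1 binding. The single time of 24 h asks which of these transcripts were still raised a day later. Earlier times were not analysed here.

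The RefSeq promoter windows (GRCm38.p6, 250 bases before to 50 bases after the annotated start) are shown for Junb, Atf3 and Jun, which rose in every light comparison, and for Fos, the classical partner gene, which passed in 1 of them. The windows lie at chr8:84978699-84978998 (minus strand), chr1:191183284-191183583 (minus strand), chr4:95052173-95052472 (minus strand) and chr12:85473640-85473939 (plus strand), and each is written 5′ to 3′ on the gene's strand with matches of the motifs searched in capitals.
Junb: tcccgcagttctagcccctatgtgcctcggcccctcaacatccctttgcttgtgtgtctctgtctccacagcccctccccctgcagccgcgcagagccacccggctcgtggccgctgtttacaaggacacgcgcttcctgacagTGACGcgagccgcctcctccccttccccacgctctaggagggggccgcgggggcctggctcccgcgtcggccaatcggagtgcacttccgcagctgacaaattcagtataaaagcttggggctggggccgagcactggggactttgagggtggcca
Atf3: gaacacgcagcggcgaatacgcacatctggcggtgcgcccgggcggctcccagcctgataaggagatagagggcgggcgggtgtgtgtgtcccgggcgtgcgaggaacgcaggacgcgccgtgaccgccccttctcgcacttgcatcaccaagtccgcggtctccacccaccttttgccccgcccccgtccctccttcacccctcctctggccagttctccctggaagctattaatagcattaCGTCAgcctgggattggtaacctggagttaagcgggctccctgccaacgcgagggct
Jun: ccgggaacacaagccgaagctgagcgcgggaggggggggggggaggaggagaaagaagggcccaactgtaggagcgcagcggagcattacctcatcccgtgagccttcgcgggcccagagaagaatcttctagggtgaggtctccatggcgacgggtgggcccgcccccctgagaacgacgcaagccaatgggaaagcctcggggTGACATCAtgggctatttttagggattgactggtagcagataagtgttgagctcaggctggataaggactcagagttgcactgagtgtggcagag
Fos: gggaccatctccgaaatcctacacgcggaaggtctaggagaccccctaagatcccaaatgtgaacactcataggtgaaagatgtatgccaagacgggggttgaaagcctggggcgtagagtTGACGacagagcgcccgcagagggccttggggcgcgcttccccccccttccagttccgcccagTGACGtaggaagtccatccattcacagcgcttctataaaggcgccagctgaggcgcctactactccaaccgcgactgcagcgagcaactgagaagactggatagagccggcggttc
The motifs searched on both strands were TGANTCA (the AP-1 element), TGACNTCA (a cyclic AMP response element or its Jun variant), TGACG (the half-site of that element, contained in TGACNTCA where N is G), TTCNNNGAA (a STAT element) and the CArG box of serum response factor. Jun had TGACATCA at position -45, with the annotated start as 0. Junb had TGACG at -106, Atf3 had its complement CGTCA at -7, and Fos had TGACG at -129 and -66. None of these 4 windows held TGANTCA, TTCNNNGAA or a CArG box, and bases outside the windows were not searched. Over all 32851 windows of this length, 8.83% held TGACNTCA, 20.8% held TGACG, 7.81% held TGANTCA, 8.30% held TTCNNNGAA and 1.63% held a CArG box. Of the 10 genes, 8 were in the promoter table, and Egr1 and Myc were not matched. Among the members not shown, Fosb had TGACG at -60. Some Egr2 windows held a CArG box (CCTTTTTTGG or CCATATATGG), and some held TGACG. Fosl2 and Jund had no match.

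The probe set of the deleted gene separated the genotypes. Its log2 level lay between 2.21 and 2.92 on the 8 KO arrays and between 5.64 and 7.61 on the 8 WT arrays. Median intensity per array was 15.3 to 15.8 at 2500 and 5000 lux and 14.4 to 15.1 at 50 lux. Lens crystallins, which mark lens carried over in dissection, summed to between 61.7 and 83345.9 across the WT 5000 lux arrays, the highest being replicate 2. Leaving out that array changed the call of none of the 8 genes tested at 5000 lux in WT. The same sum ran from 104.6 to 8055.3 on KO arrays and from 62.5 to 182.0 on the other WT groups.

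A day after bright light Junb, Atf3 and Jun were higher in all 4 light comparisons. Fos, Jund and Myc each passed in 1 of the 4, and Egr1 and Fosl2 in none. In KO retinas 5 of 8 genes rose at 2500 lux (Junb, Atf3, Myc, Jun and Jund), where 8.87% of all genes tested rose and 22.4% were called in either direction, and 4 of 8 rose at 5000 lux (Junb, Atf3, Fos and Jun), where 4.60% of all genes rose. In WT retinas Junb, Atf3 and Jun rose at 2500 lux (3 of 8, against 8.93% of all genes higher and 5.13% lower) and at 5000 lux (3 of 8, against 7.56% higher and 5.27% lower). No member fell after light in limma in any of the 4 comparisons, and none had a lower level at an unadjusted p below 0.05. Myc entered the 8 only through the KO arrays at 2500 lux, where it was high. The median log2 change of the 8 genes was 1.11 at 2500 lux and 0.67 at 5000 lux in KO retinas, and 0.81 and 1.08 in WT retinas, against -0.08, -0.09, 0.04 and 0.00 over all genes. The pairs of comparisons within a genotype share their 50 lux arrays.

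**Figure D1:**
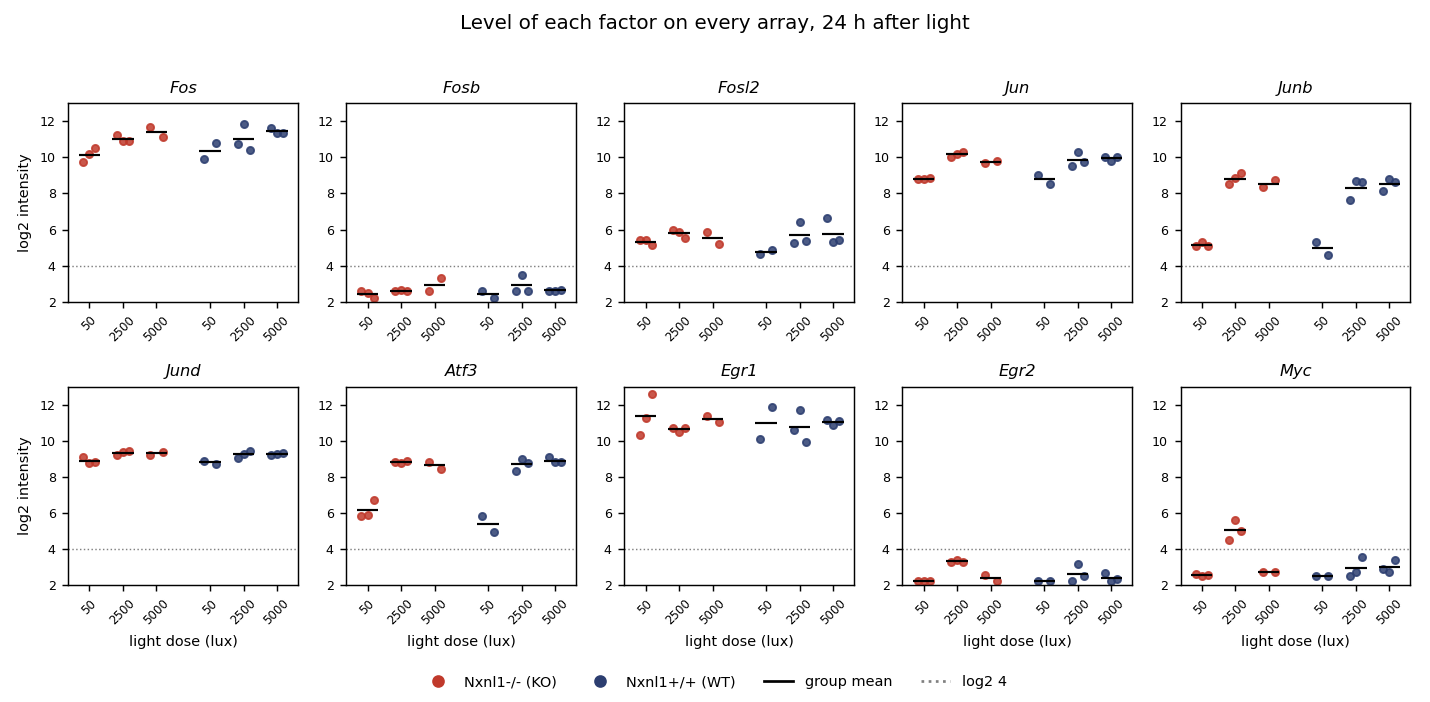
Log2 intensity (y axis) of the brighter probe set of each factor on every array, by genotype and light dose in lux (x axis). Points are arrays (KO in red, WT in blue), bars are group means and the dotted line is log2 4. Junb and Atf3 lie above 7.6 on all 11 arrays at the higher doses and below 6.8 on all 5 arrays at 50 lux. Myc exceeds log2 4 only on the 3 KO arrays at 2500 lux. Egr1 at either higher dose overlaps with 50 lux in both genotypes.

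Junb, a Jun protein often counted as a brake on Jun-driven growth, had the largest change of the 8 genes in KO retinas at both doses and in WT retinas at both doses. Its log2 levels in KO retinas were 5.07, 5.32 and 5.09 at 50 lux, 8.51, 8.85 and 9.12 at 2500 lux, and 8.35 and 8.74 at 5000 lux. In WT retinas they were 5.32 and 4.58 at 50 lux, 7.63, 8.67 and 8.64 at 2500 lux, and 8.11, 8.78 and 8.66 at 5000 lux. Every array at the higher doses lay above every array at 50 lux, and WT 2500 lux replicate 1 was the lowest of the bright arrays. Junb rose 12.7-fold in KO at 2500 lux (log2 3.67, SE 0.29, adjusted p = 2.1e-06 in limma) and 10.4-fold at 5000 lux (log2 3.38, SE 0.32, adjusted p = 4e-05). The rises in WT were 10.3-fold at 2500 lux (log2 3.36, SE 0.32, adjusted p = 1.6e-05) and 11.9-fold at 5000 lux (log2 3.57, SE 0.32, adjusted p = 9e-06). Ordered by log2 change among 10916 genes, Junb stood at rank 26 and rank 14 in KO and at rank 37 and rank 30 in WT.

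Jun, the founding AP-1 subunit and substrate of the Jun kinases, rose by a smaller amount in all 4 comparisons. Its brighter probe set read 8.79, 8.78 and 8.88 in KO retinas at 50 lux, 10, 10.19 and 10.31 at 2500 lux, and 9.69 and 9.83 at 5000 lux. The WT arrays read 9.05 and 8.55 at 50 lux, 9.54, 10.32 and 9.74 at 2500 lux, and 10.03, 9.79 and 10.05 at 5000 lux. Bright and dim arrays did not overlap in either genotype. The log2 change was 1.35 (SE 0.18, adjusted p = 0.0002) at 2500 lux and 0.94 (SE 0.21, adjusted p = 0.013) at 5000 lux in KO. In WT it was 1.07 (SE 0.21, adjusted p = 0.0043) at 2500 lux and 1.16 (SE 0.21, adjusted p = 0.0026) at 5000 lux. Without WT 50 lux replicate 2 the WT changes had adjusted p = 0.077 at 2500 lux and 0.052 at 5000 lux, and with only the arrays compared the first had adjusted p = 0.1. The KO change at 5000 lux had adjusted p = 0.12 without KO 5000 lux replicate 2, 0.065 with only the arrays compared and 0.068 with array weights. A second Jun probe set rose at 2500 lux in KO (log2 1.28, adjusted p = 0.00016) and in WT (log2 0.91, adjusted p = 0.0067), but its changes of 0.57 and 0.58 at 5000 lux had adjusted p = 0.068 in KO and 0.071 in WT.

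Jund, the Jun protein found in many resting cells, moved least among the Jun genes. It lay between 9.04 and 9.45 on the 11 arrays at the higher doses and between 8.75 and 9.11 on the 5 arrays at 50 lux, without overlap within either genotype. In KO at 2500 lux it rose 1.34-fold (log2 0.42, SE 0.13, adjusted p = 0.032), a call that 4 of the 6 omissions of single arrays ended, with adjusted p from 0.094 to 0.12 in those 4. The other 3 changes were of like size, 0.39 in KO at 5000 lux and 0.43 and 0.45 in WT at 2500 and 5000 lux, and missed the threshold with adjusted p = 0.088, 0.068 and 0.063.

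Atf3, induced in injured neurons and glia and able to repress or activate its targets, rose in every light comparison. Its log2 levels in KO retinas were 5.84, 5.88 and 6.71 at 50 lux, 8.85, 8.78 and 8.87 at 2500 lux, and 8.84 and 8.46 at 5000 lux. WT retinas had 5.82 and 4.94 at 50 lux, 8.33, 9.02 and 8.78 at 2500 lux, and 9.09, 8.82 and 8.82 at 5000 lux. The bright arrays of both genotypes reached one narrow band, and the 50 lux arrays spread more widely below it. Atf3 rose 6.45-fold in KO at 2500 lux (log2 2.69, SE 0.26, adjusted p = 1.2e-05) and 5.67-fold at 5000 lux (log2 2.50, SE 0.29, adjusted p = 0.00019). WT retinas had rises of 10.1-fold (log2 3.33, SE 0.29, adjusted p = 7.9e-06) and 11.6-fold (log2 3.53, SE 0.29, adjusted p = 4.3e-06). At 50 lux Atf3 was 0.77 higher in KO on the log2 scale (SE 0.29, unadjusted p = 0.02, adjusted p = 0.26 in limma), and the interaction of genotype with light was -0.64 (SE 0.39, adjusted p = 0.62) at 2500 lux and -1.03 (SE 0.41, unadjusted p = 0.026, adjusted p = 0.59) at 5000 lux. Neither passed.

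**Figure D2:**
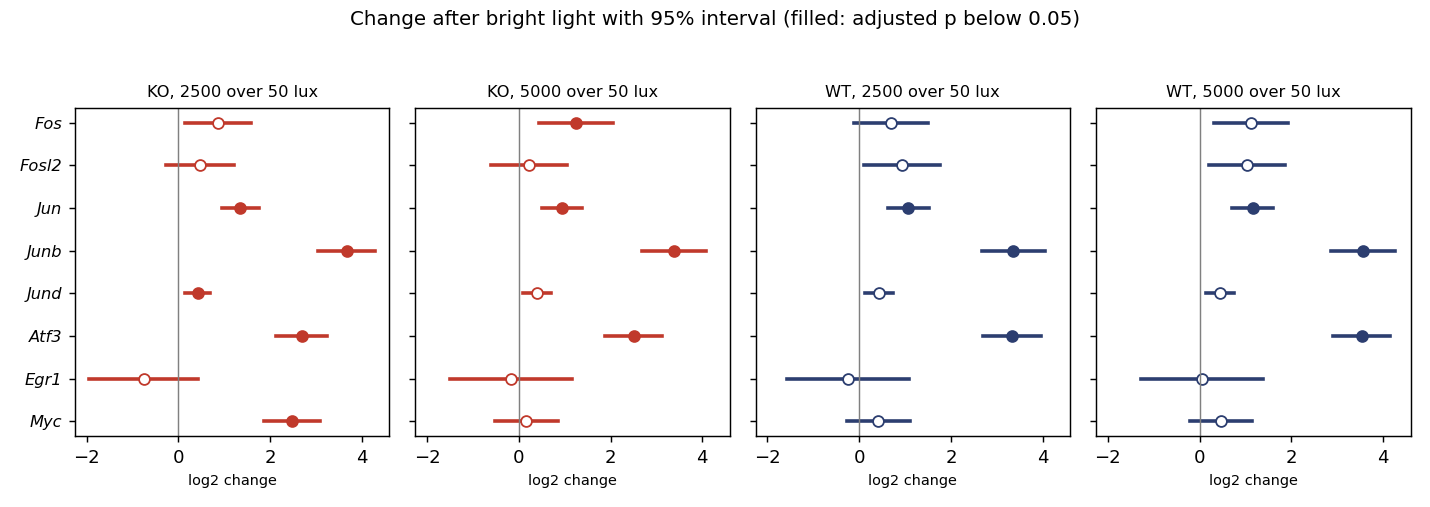
Log2 change against 50 lux (x axis) of the 8 tested factors (rows) in each genotype and dose, with the 95% interval of the fit across all arrays. Filled points passed adjusted p 0.05. Junb and Atf3 sit between 2.50 and 3.67 in all 4 panels, Jun between 0.94 and 1.35, and the intervals of Egr1 include 0 in every panel.

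Fos, the partner that gives AP-1 its strongest DNA binding, had log2 levels between 9.76 and 11.88 over the 16 arrays. KO retinas had 9.76, 10.20 and 10.51 at 50 lux, 11.23, 10.94 and 10.90 at 2500 lux, and 11.70 and 11.11 at 5000 lux. WT retinas had 9.90 and 10.78 at 50 lux, 10.77, 11.88 and 10.43 at 2500 lux, and 11.66, 11.36 and 11.36 at 5000 lux. KO arrays at either bright dose lay above KO arrays at 50 lux, as did WT arrays at 5000 lux above WT arrays at 50 lux, while WT arrays at 2500 lux overlapped with those at 50 lux. The log2 change was 0.86 (95% interval 0.14 to 1.59, adjusted p = 0.091) in KO at 2500 lux and 1.25 (0.44 to 2.06, adjusted p = 0.049) in KO at 5000 lux. It was 0.69 (-0.12 to 1.50, adjusted p = 0.28) in WT at 2500 lux and 1.12 (0.31 to 1.93, adjusted p = 0.079) in WT at 5000 lux. The 1 call, in KO at 5000 lux, passed in 4 of 14 other settings, with adjusted p up to 0.17.

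Fosb, a Fos protein that accumulates in neurons after repeated stimulation, did not exceed log2 3.50 on any array. Fosl2, a Fos relative with a longer-lived transcript, gave signal on 1 of 2 probe sets. In KO retinas Fosl2 read 5.39, 5.39 and 5.15 at 50 lux, 6.0, 5.84 and 5.52 at 2500 lux, and 5.85 and 5.22 at 5000 lux. In WT retinas it read 4.62 and 4.85 at 50 lux, 5.25, 6.39 and 5.38 at 2500 lux, and 6.62, 5.32 and 5.39 at 5000 lux. WT arrays at either bright dose lay above both WT arrays at 50 lux, with 1 array of each dose far above the rest, and no change passed. The log2 change was 0.48 (95% interval -0.27 to 1.22, adjusted p = 0.37) and 0.23 (-0.60 to 1.06, adjusted p = 0.73) in KO at 2500 and 5000 lux. In WT it was 0.93 (0.10 to 1.76, adjusted p = 0.15) and 1.04 (0.21 to 1.87, adjusted p = 0.11). The second Fosl2 probe set read 2.24 on every array.

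Egr1, an activity-dependent factor of retinal neurons, was high in dim and bright retinas alike and varied most. Its levels in KO retinas were 10.34, 11.25 and 12.63 at 50 lux, 10.72, 10.52 and 10.70 at 2500 lux, and 11.41 and 11.07 at 5000 lux. In WT retinas they were 10.11 and 11.88 at 50 lux, 10.60, 11.70 and 9.97 at 2500 lux, and 11.18, 10.89 and 11.10 at 5000 lux. The highest array was KO 50 lux replicate 3, and no dose separated from another in WT. The log2 change was -0.76 (95% interval -1.95 to 0.43, adjusted p = 0.37) and -0.16 (-1.49 to 1.17, adjusted p = 0.89) in KO at 2500 and 5000 lux. WT changes were -0.23 (-1.56 to 1.09, adjusted p = 0.87) and 0.06 (-1.27 to 1.39, adjusted p = 0.97). These intervals leave room for a change of more than 1 log2 unit in either direction in 3 of the 4 comparisons and do not reach the size of the Junb changes. The spread within groups was 0.77 for Egr1, 0.47 for Fosl2 and 0.46 for Fos on the log2 scale (SD over 10 residual degrees of freedom), against 0.17 for the median gene tested. Egr1 stood at the 99.7th percentile of that spread, Fosl2 at 98.1 and Fos at 97.8, while Jun stood at 74.8 and Jund at 35.0.

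Egr2, which acts in glia and activated immune cells, stayed below log2 4 on all 16 arrays on both of its probe sets. Its brighter probe set read 3.30, 3.42 and 3.29 in KO at 2500 lux and 2.21 on all 5 arrays at 50 lux. KO arrays at 5000 lux read 2.57 and 2.21, and WT arrays ranged from 2.21 to 3.16 at 2500 lux and from 2.21 to 2.67 at 5000 lux. No fold is given at these levels.

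Myc showed another pattern, with signal only in KO retinas at 2500 lux. It read 2.61, 2.53 and 2.56 in KO at 50 lux, 4.5, 5.61 and 5.03 at 2500 lux, and 2.73 and 2.73 at 5000 lux. In WT it read 2.53 and 2.53 at 50 lux, 2.53, 2.73 and 3.58 at 2500 lux, and 2.87, 2.73 and 3.39 at 5000 lux. The 3 KO arrays at 2500 lux were above log2 4 and the other 13 arrays were below it. Myc thus passed the filter on low levels only through the group in which it was high, and each of its calls is given with the fit that used no filter. It was at least 2.07-fold higher in KO at 2500 lux than in KO at 50 lux (adjusted p = 4.8e-05 in limma, 0.0007 without the filter), the bound being taken against log2 4. Against WT at 2500 lux it was also at least 2.07-fold higher (adjusted p = 0.015, but 0.069 without the filter). Of all genes tested 0.119% were called higher there. In KO at 5000 lux it was at least 2.07-fold lower than in KO at 2500 lux (adjusted p = 0.016, but 0.054 without the filter), a comparison in which 0.119% of all genes were called lower.

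The interaction itself, the KO light response minus the WT light response at 2500 lux, was 2.06 for Myc on the log2 scale (SE 0.42) and did not pass in limma (unadjusted p = 0.0003, adjusted p = 0.19). All groups in it but KO at 2500 lux lay below log2 4 on every array, so its size depends on values near the floor. With values raised to log2 4 the interaction was 1.05. Over 20 other settings its adjusted p ran from 0.046, without WT 2500 lux replicate 3, to 0.68. The difference between KO and WT at 2500 lux was past the threshold in 8 of 15 other settings. It had adjusted p = 0.072 and 0.066 without KO 2500 lux replicate 2 or 3, 0.12 and 0.13 without WT 2500 lux replicate 1 or 2, and 0.55 with only the 6 arrays compared. The rise over 50 lux within KO passed in all 15. Of these only the fit without a filter did not select Myc through the KO arrays at 2500 lux.

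Apart from Myc, no factor was called between the genotypes or between the bright doses. In limma no member passed between KO and WT at 50 lux (1 with unadjusted p below 0.05, Atf3; 0.403% of all genes called) or at 5000 lux (0 with unadjusted p below 0.05; 0.00916% called). No member passed from 2500 to 5000 lux in WT (0 unadjusted; 0.00% called), and in KO none but Myc passed. For the interactions the counts were 0 at 2500 lux (1 unadjusted, Myc; 0.0641% called) and 0 at 5000 lux (1 unadjusted, Atf3; 0.0366% called). For Junb the interaction was 0.31 (95% interval -0.62 to 1.23) at 2500 lux and -0.18 (-1.16 to 0.79) at 5000 lux, and for Jun it was 0.28 (-0.31 to 0.88) and -0.21 (-0.84 to 0.41).

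Genes with the most similar profile were found by the root mean square difference of the 6 group means of log2 level, each profile centred on its own mean. For Junb they were the guanylate-binding protein genes Gbp2b and Gbp2 and the chemokine gene Ccl12, at 0.16, 0.17 and 0.20 log2 units, against a median of 1.68 over all genes. For Atf3 they were Cfi, which encodes complement factor I, Pcolce, an enhancer of procollagen processing, and Lrrc2, at 0.14, 0.18 and 0.18 (median 1.46). For Jun they were the DNA repair gene Ercc1, the cytokine signalling suppressor Socs2, and Lin9, at 0.07, 0.07 and 0.08 (median 0.58). For Myc, added after its values were seen, they were the interferon-induced Ifitm1, the chromatin protein gene Hmga2 and the Fos relative Fosl1, at 0.06, 0.10 and 0.17 (median 0.89). Like Myc, these genes had group means below log2 4 in every group but KO at 2500 lux. Their small distances therefore rest on that group and on levels near the floor. Of the Junb and Atf3 neighbours, Gbp2b, Ccl12 and Cfi had 50 lux means below log2 4 in both genotypes, and Gbp2 in WT. The distances of these neighbours rest in part on levels near the floor.

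**Figure D3:**
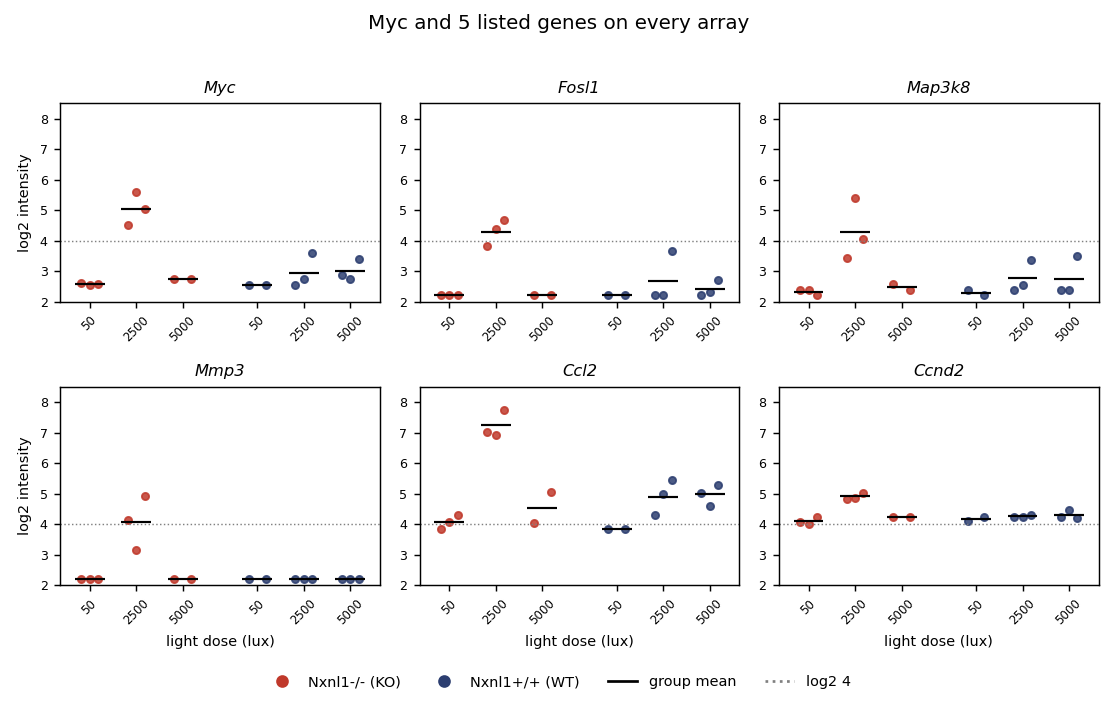
Log2 intensity (y axis) of Myc and of 5 genes from the lists on every array, by genotype and light dose in lux (x axis). Points are arrays (KO in red, WT in blue), bars are group means and the dotted line is log2 4. In each panel the 3 KO arrays at 2500 lux hold the highest group mean, and Mmp3 is at 2.21 on all other arrays. The 5 genes were picked by hand and not by a rule, so the shared highest mean is not a separate result. Fosl1, Map3k8 and Mmp3, like Myc, exceed log2 4 on no array outside that group.

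Of 11 tested relatives of AP-1, 3 rose at 2500 lux and 2 at 5000 lux in KO, where 8.87% and 4.60% of all genes rose. In WT 1 rose at each dose, where 8.93% and 7.56% of all genes rose, and none was lower in either genotype. Fosl1, a Fos relative that Fos and Jun themselves induce, read 2.21 on all KO arrays at 50 and 5000 lux and 3.83, 4.37 and 4.69 in KO at 2500 lux. On WT arrays it ranged from 2.21 to 3.65. It is 1 of the 3 counted in KO at 2500 lux, and since it was tested only through that group its p is not given. Nfe2l2, the antioxidant response factor, rose in KO at 2500 lux (log2 0.58, adjusted p = 0.0038) and at 5000 lux (log2 0.49, adjusted p = 0.033). Its WT changes of 0.18 and 0.21 did not pass. At 50 lux its mean was 8.18 in KO and 8.58 in WT (adjusted p = 0.22 in limma). At 2500 lux its mean was 8.76 in both genotypes. Atf5, a stress response factor, rose in WT at 2500 lux (log2 1.23, adjusted p = 0.02). The mean of Atf5 at 50 lux was 6.87 in KO and 5.99 in WT, and at 2500 lux it was 7.32 and 7.21. Atf7 was at least 2.17-fold higher in KO at 5000 lux (adjusted p = 0.0059).

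Other immediate early genes were mixed. Of 17 tested, 7 rose and 2 fell at 2500 lux and 5 rose and 1 fell at 5000 lux in KO, and in WT 5 rose and 1 fell at 2500 lux and 7 rose and 1 fell at 5000 lux. Of all genes tested, 8.87% rose and 13.5% fell in KO at 2500 lux, and 4.60% and 7.81% did at 5000 lux. In WT 8.93% rose and 5.13% fell at 2500 lux, and 7.56% and 5.27% did at 5000 lux. Klf10, a zinc finger factor of the TGF-beta response, rose by 2.14 and 1.35 in KO and by 1.81 and 1.95 in WT on the log2 scale (adjusted p from 2.1e-05 to 0.0049). Zfp36, which destabilises cytokine messenger RNAs, rose by 1.99 and 1.12 in KO and by 1.28 and 1.49 in WT (adjusted p from 0.0004 to 0.045). Trib1, a pseudokinase that promotes degradation of C/EBP factors, fell by 0.69 and 0.75 in KO and by 1.53 and 1.46 in WT (adjusted p from 3.6e-06 to 0.0022). At 50 lux Trib1 was also lower in KO, by a log2 difference of -0.65 (adjusted p = 0.045).

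The kinases and factors that act on these genes were called about as often as all genes in KO at 2500 lux, 5 of 21 against 22.4%. Of the 21 tested, 3 rose and 2 fell at 2500 lux and 2 rose and 1 fell at 5000 lux in KO, and in WT 3 rose and 1 fell at 2500 lux and 3 rose with none lower at 5000 lux. The share of all genes called in either direction was 12.4% in KO at 5000 lux. It was 14.1% and 12.8% in WT at 2500 and 5000 lux. Elk3, a ternary complex factor that binds with serum response factor, was at least 3.46-fold and 1.76-fold higher in KO at 2500 and 5000 lux and at least 2.92-fold and 2.49-fold higher in WT (adjusted p from 5.7e-05 to 0.01). Map3k1, a kinase upstream of the Jun kinases, rose by 0.84 and 0.53 in KO and by 0.59 and 0.70 in WT on the log2 scale (adjusted p from 0.00023 to 0.021). Map3k5, a kinase activated by oxidative stress, rose in WT at both doses (log2 0.80 and 0.69, adjusted p = 0.00084 and 0.0025), and its KO changes of 0.26 and 0.03 did not pass. Its interaction of genotype with light was -0.54 (adjusted p = 0.4 in limma) at 2500 lux and -0.66 (adjusted p = 0.34) at 5000 lux. At 50 lux Map3k5 was 0.49 higher in KO on the log2 scale (adjusted p = 0.13 in limma). The means at 2500 lux were 7.43 in KO and 7.48 in WT. Map3k8, a kinase that activates the ERK pathway, read 3.42, 5.4 and 4.05 in KO at 2500 lux and between 2.21 and 3.48 on the other 13 arrays. It too was tested only through the group in which it was high, and it is 1 of the 3 counted as higher in KO at 2500 lux.

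Of 16 feedback genes of MAP kinase signalling, 4 fell and 3 rose at 2500 lux and 5 fell and 2 rose at 5000 lux in KO, and in WT 2 fell and 2 rose at 2500 lux and 4 fell and 2 rose at 5000 lux. Of all genes, 13.5% and 7.81% fell and 8.87% and 4.60% rose in KO at 2500 and 5000 lux. In WT 5.13% and 5.27% fell and 8.93% and 7.56% rose. Dusp4, a nuclear phosphatase of MAP kinases, fell by 1.60 and 1.33 in KO and by 1.28 and 0.78 in WT on the log2 scale (adjusted p from 5.2e-05 to 0.028). Dusp7, a phosphatase of ERK kinases, fell by 0.73 and 0.55 in KO and by 0.54 and 0.58 in WT (adjusted p from 0.00048 to 0.016). Of 5 tested genes that restrain or follow Egr factors, 2 rose at 2500 lux and 0 at 5000 lux in KO, and 2 and 1 in WT. These counts stand beside the same shares of all genes. The co-repressor gene Nab2 rose in KO at 2500 lux (log2 0.60, adjusted p = 0.048) and in WT at 5000 lux (log2 0.76, adjusted p = 0.042).

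Genes reported in other systems as AP-1 targets included Timp1, Cd44, Mmp3 and Ccl2. Of 12 tested, 9 rose at 2500 lux and 5 at 5000 lux in KO, and 6 and 5 rose in WT, with none lower. Over all genes the shares that rose were 8.87% and 4.60% in KO and 8.93% and 7.56% in WT. The median log2 change of the 12 was 2.00 and 0.47 in KO and 0.87 and 0.80 in WT. Over all genes it was -0.08 and -0.09 in KO and 0.04 and 0.00 in WT. Timp1, an inhibitor of matrix proteases, was at least 7.01-fold and 2.92-fold higher in KO at 2500 and 5000 lux and at least 2.80-fold and 2.95-fold higher in WT. Cd44, a hyaluronan receptor, rose by 2.43 and 1.35 in KO and by 1.97 and 1.97 in WT on the log2 scale (adjusted p from 7.7e-06 to 0.0049). The matrix protease gene Mmp3 read 4.12, 3.16 and 4.93 in KO at 2500 lux and 2.21 on the other 13 arrays. Mmp3 too was tested only through that group, and it is part of the 12 in the counts and medians above. The chemokine gene Ccl2 read 7.01, 6.94 and 7.76 in KO against 4.29, 4.98 and 5.45 in WT at 2500 lux (log2 difference 2.33, adjusted p = 0.018), with an interaction of 2.11 that had adjusted p = 0.23.

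For Myc, the transcripts of its partners and reported targets were read beside its own. Of 10 partners, which include the obligate partner Max and the Mxd repressors, 1 fell in each of the 4 light comparisons and none rose. That 1 was Mxd1, which competes with Myc for Max, with log2 changes of -0.55 and -0.63 in KO and -0.56 and -0.51 in WT (adjusted p from 0.0039 to 0.018). Of all genes, 13.5% and 7.81% fell in KO at 2500 and 5000 lux, and 5.13% and 5.27% in WT. Of 18 reported targets, 5 rose and 1 fell at 2500 lux and 0 rose and 2 fell at 5000 lux in KO, and 2 rose with none lower at each dose in WT. The shares of all genes that rose were 8.87% and 4.60% in KO and 8.93% and 7.56% in WT. The median log2 change of the 18 in KO was 0.17 at 2500 lux and 0.01 at 5000 lux, against -0.08 and -0.09 over all genes. The cyclin gene Ccnd2 was higher in KO than in WT at 2500 lux (log2 difference 0.65, adjusted p = 0.034). The nucleolar genes Npm1 and Fbl rose by 0.58 and 0.54 in KO at 2500 lux (adjusted p = 0.0081 and 0.0068). Both also had higher means after bright light in WT, where Myc stayed below log2 4. The WT means at 50, 2500 and 5000 lux were 11.40, 11.96 and 11.74 for Npm1. For Fbl they were 8.62, 8.99 and 9.20.

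**Figure D4:**
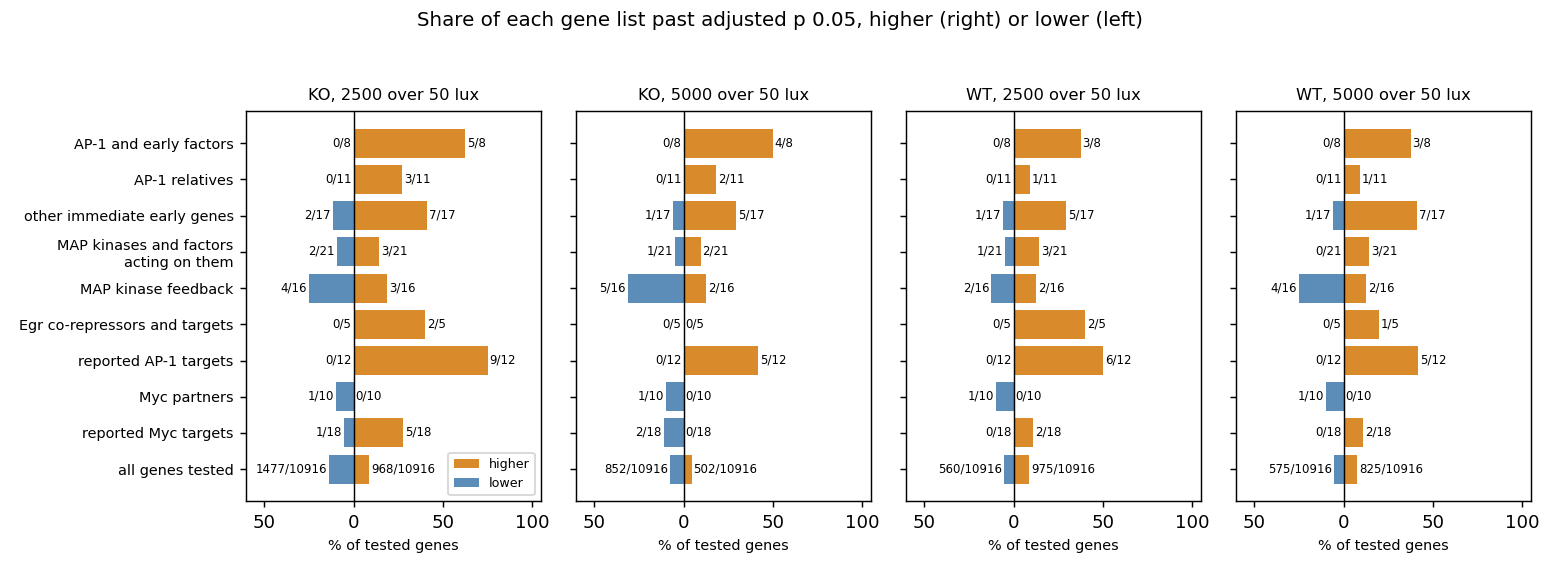
Percentage of the tested genes of each list (rows) that passed adjusted p 0.05 as higher (right of 0) or lower (left of 0) in each light comparison, with the counts beside the bars and all 10916 genes tested in the last row. The AP-1 and early factors and the reported AP-1 targets have bars to the right only, from 3 of 8 to 5 of 8 and from 5 of 12 to 9 of 12.

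These were whole retinas, so fewer cells of a type and less RNA per cell cannot be told apart, and markers of other cells moved with the doses. Summed over the 13 microglia and macrophage markers on the array, intensity was 531.6 to 646.8 in KO at 2500 lux and 331.0 to 655.5 in KO at 5000 lux, against 429.7 to 578.0 in KO at 50 lux. In WT it was 518.5 to 618.0 and 408.7 to 683.9, against 297.7 to 312.6 at 50 lux. Of 8 such markers tested, 2 were higher and 1 lower in KO at 2500 lux, and 2 higher and 0 lower at 5000 lux. In WT 5 were higher at 2500 lux and 3 at 5000 lux, with 0 lower. Of these 13 markers, Aif1, Itgam, C1qc and Trem2 stayed at or below log2 4 on all 16 arrays, as did all 7 monocyte, neutrophil and T cell markers on the array. The 3 astrocyte markers summed to 522.5 to 683.9 and 513.2 to 618.7 in KO, against 167.4 to 232.4 at 50 lux, and to 377.2 to 669.9 and 516.2 to 603.2 in WT, against 138.9 to 148.9 at 50 lux. Of these 3, 2 were higher and 1 lower in KO at both doses and in WT at 5000 lux. In WT at 2500 lux 2 were higher and 0 lower. S100b went down, from a mean of log2 5.77 at 50 lux to 4.88 and 4.62 in KO. Its WT means were 5.77, 4.89 and 4.52. The 6 rod markers on the array summed to 60859.6 to 64043.4 and 73594.1 to 78024.2 in KO, against 85897.4 to 96395.2 at 50 lux, and to 66873.4 to 76165.5 and 68761.6 to 74152.3 in WT, against 91897.5 to 93982.1 at 50 lux. The 10 Müller glia markers summed to 24620.3 to 28644.8 on bright KO arrays against 26705.1 to 27591.0 at 50 lux, and to 25497.5 to 28937.0 on bright WT arrays against 29285.7 to 29749.9 at 50 lux. Behind these sums, 5 of the 10 were lower and 1 higher in KO at 2500 lux, and 4 lower and 1 higher at 5000 lux. In WT 5 were lower and 2 higher at 2500 lux, and 4 lower and 2 higher at 5000 lux. Rlbp1, a retinoid carrier of Müller cells, had log2 changes of -1.10 and -1.02 in KO and -1.37 and -1.54 in WT. Vim, in the same list, went the other way, from a mean of log2 11.58 at 50 lux to 13.72 and 13.31 in KO. Its WT means were 11.46 at 50 lux and 13.43 and 13.45 at the higher doses. Cone markers (7 on the array) summed to 4463.4 to 9130.1 on bright KO arrays against 12660.3 to 13467.7 at 50 lux, and to 5251.4 to 8995.9 on bright WT arrays against 11188.8 to 11433.3 at 50 lux. Pigment epithelium markers (8) summed to 3483.5 to 7310.0 on bright KO arrays against 6045.1 to 12071.2, and to 3060.5 to 9702.8 on bright WT arrays against 9615.4 to 13399.4, with all 6 tested lower in WT at 5000 lux. Ganglion and amacrine markers (9) summed to 10492.4 to 10862.4 at 2500 lux and 6551.7 to 9459.8 at 5000 lux in KO, against 11133.3 to 15126.7 at 50 lux, and 7 of 9 were lower in KO at 5000 lux. In WT they summed to 9830.1 to 11878.0 and 7554.4 to 10427.2, against 10908.9 to 11175.5 at 50 lux. Bipolar markers (5) summed to 9380.3 to 10705.0 on bright KO arrays against 11180.9 to 12419.7, and to 9364.7 to 11203.4 on bright WT arrays against 10450.0 to 10460.6. Endothelial and pericyte markers (8) summed to 1462.8 to 1572.6 on bright KO arrays against 1146.2 to 1496.4, and to 1216.5 to 2165.5 on bright WT arrays against 934.9 to 984.4. The part of these markers in the changes of Junb, Atf3, Jun and Myc was not tested.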

How the data were processed

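RNA of 16 retinas or retina pools was measured on 16 Affymetrix 3' expression arrays, 1 per sample. The deposited values are intensity values on a linear scale, 1 per probe set and array. GCRMA, which corrects background, normalizes and summarises probes, is named per the submitters' processing notes, with no version or settings known here. The lowest intensity in the table is 4.62. The number of arrays limits the precision.

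Log2 was taken, and 23320 probe sets above log2 4 on at least 2 arrays were fitted with 1 mean per genotype and dose in limma 3.58.1 (R 4.3.3, lmFit and eBayes without trend, 10 residual and 3.18 prior degrees of freedom). The 11 comparisons were contrasts of these means, with Benjamini-Hochberg adjustment over all probe sets tested and a threshold of 0.05. The brightest probe set with 1 symbol stood for a gene (platform annotation: 34945 probe sets with 1 symbol, 932 with several, 9160 with none). Where every array of 1 group lay at or below log2 4, that level replaced them in the fold, which is then written "at least". The fit was tested on simulated data.

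All factors were named. From each other list up to 4 genes with the smallest p after light could be named, with any called between genotypes or in an interaction. Members and lists were chosen with earlier results of these data known. Filters, scaling, variance models, array omissions and a replicate block were tried as alternatives. No 2 arrays held identical values.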

Additional observations from a re-analysis of the deposited data

Results flagged for a closer look

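Egr2 was not tested, yet both of its probe sets read higher on every KO array at 2500 lux than on any of the 5 arrays at 50 lux. The lowest KO value at 2500 lux was 3.29 on the brighter probe set and 2.59 on the other, against 2.21 on all 5 arrays at 50 lux. Both stayed below the log2 level of 4 used for testing. Groups of 2 or 3 arrays are too small for a search for single outlying arrays.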

How the results depend on the processing

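The rises of Junb and Atf3 in the 4 light comparisons passed in every alternative run. Their log2 changes were 3.00 to 3.93 for Junb and 2.31 to 3.97 for Atf3. The rise of Jun in KO at 2500 lux also passed in every run, with log2 changes of 1.28 to 1.44. That of Myc in KO at 2500 lux passed too, with log2 changes of 1.05 to 2.75. Of these runs only the fit without a filter did not select Myc through the KO arrays at 2500 lux. Over the 1344 recomputed changes of the 8 genes in the 11 comparisons, 1300 stayed on their side of the threshold, 36 no longer passed, 8 newly passed and 0 called values changed sign; 88 uncalled changes did. In KO at 5000 against 50 lux 2 members were called with array weights and 2 with only the arrays compared, against 4. In WT at 5000 lux 5 were called with array weights, against 3. The 1 call between KO and WT at 2500 lux, Myc, became 0 without a filter, with only the arrays compared and with values raised to log2 4. The 1 call between 5000 and 2500 lux in KO, also Myc, became 0 in those same 3 settings and with array weights. Leaving out single arrays gave 4 to 5 calls in KO at 2500 lux, 2 to 4 in KO at 5000 lux, 2 to 4 in WT at 2500 lux, 2 to 3 in WT at 5000 lux, 0 to 1 between the genotypes at 2500 lux, 0 to 1 between the bright doses in KO and 0 to 1 for the interaction at 2500 lux; it gave 0 in the other 4 comparisons. Why these calls moved was not tested, except that omissions and subsets leave fewer arrays. Same-numbered arrays deviated together in some pairs only (correlations from -0.09 to 0.69, 12 of 21 pairs over 0.1), so the numbers were not taken as pairs. With the replicate block 5 members were called in KO at 2500 lux, 3 in KO at 5000 lux and 3 at each dose in WT; Fos in KO at 5000 lux had adjusted p = 0.054. Signals near the floor limit Myc, Fosb and Egr2.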
